A study of Homo sapiens with 18 samples.

Results

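The 45 genes described here encode proteins of mitosis and of the G2/M transition, and they were taken as a list of names: cyclins, kinases and phosphatases of mitotic entry, the spindle checkpoint and the anaphase-promoting complex, kinetochore and chromosomal passenger proteins, kinesins and other spindle proteins, and proteins of cytokinesis and chromosome structure. All 45 were found among the 58051 genes of the table, and all 45 passed the filter on low counts in each line. RNA was sequenced from SKMEL2 and SKMEL30, NRAS-mutant human melanoma cell lines that stably carry a doxycycline-inducible lentiviral vector for Myc-tagged PPP2R3B, a regulatory subunit of the phosphatase PP2A. Each line had 3 uninduced libraries (labelled untreated), 3 libraries of cells given doxycycline for 6 h and 3 of cells given it for 18 h. All 18 libraries carry the vector, and no library of doxycycline-treated cells without it was analysed here. The time after which the uninduced cells were harvested is not given in the labels, and the text of the study names a later time point slightly shorter than the 18 h of the labels. The labels do not say that replicates were separate cultures, so p-values measure the spread between these samples, which may be technical.

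In a dividing cell, transcripts of the G2/M genes rise through S phase and G2, peak around mitosis and are low in G1 and in resting cells. CDK1 bound to cyclin B drives entry into mitosis, the spindle checkpoint holds the cell until every kinetochore is attached, and the anaphase-promoting complex with CDC20 then destroys securin and cyclin B. PP2A opposes CDK1 on many substrates, and B″ subunits such as PPP2R3B are among those that direct it to its targets. In a culture of mixed cells, fewer cells in G2 or M and less of these RNAs per cell cannot be told apart.

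Many promoters of this class hold a cell cycle genes homology region, through which the DREAM and MuvB complexes act, and CCAAT boxes bound by NF-Y. The RefSeq promoter table (GRCh38.p14) had 48 windows for 38 of the 45 genes, and the 250 bases before each annotated start were searched on both strands. TTTGAA or TTCGAA was found for 23 of 38 genes (60.5%), against 17.2% of all 27305 genes in the table. CCAAT was found for 32 of 38 (84.2%, against 37%), both motifs for 21 (55.3%, against 6.24%) and neither for 4 (10.5%, against 53.1%). Counted by window rather than by gene, both motifs were in 45.8% of the members' windows and in 5.05% of all 35116. Matches may overlap by their end bases, and a match is a description of the letters, not of binding. The last 130 bases before the start are shown for 5 genes whose levels are described below, with matches in capitals. They are the APC activator CDC20 (chr1:43358851-43358980, plus strand), the mitotic kinase PLK1 (chr16:23678759-23678888, plus), the cyclin CCNB2 (chr15:59105016-59105145, plus), the spindle protein HMMR (chr5:163460502-163460631, plus) and the kinetochore motor CENPE (chr4:103198344-103198473, minus), which had neither motif.
CDC20: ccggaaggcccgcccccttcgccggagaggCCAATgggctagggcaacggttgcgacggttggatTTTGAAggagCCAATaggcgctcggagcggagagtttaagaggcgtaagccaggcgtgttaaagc
PLK1: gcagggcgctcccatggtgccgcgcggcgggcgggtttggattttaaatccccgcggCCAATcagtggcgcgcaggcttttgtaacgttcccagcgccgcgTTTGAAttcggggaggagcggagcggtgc
CCNB2: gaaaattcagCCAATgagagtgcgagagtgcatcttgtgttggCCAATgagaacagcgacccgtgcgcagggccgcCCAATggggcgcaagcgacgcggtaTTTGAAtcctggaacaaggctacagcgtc
HMMR: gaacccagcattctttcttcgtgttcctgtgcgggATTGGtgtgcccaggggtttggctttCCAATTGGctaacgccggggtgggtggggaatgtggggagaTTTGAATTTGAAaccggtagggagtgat
CENPE: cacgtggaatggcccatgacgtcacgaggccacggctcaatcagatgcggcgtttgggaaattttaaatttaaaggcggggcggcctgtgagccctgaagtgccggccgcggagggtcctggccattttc
CDC20 and PLK1 each have the homology region near a CCAAT box, CCNB2 has 3 CCAAT boxes before it, and HMMR has CCAAT boxes on both strands and a repeated homology region. No match in the CENPE window says only that these letters are not in it.

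**Figure D1:**
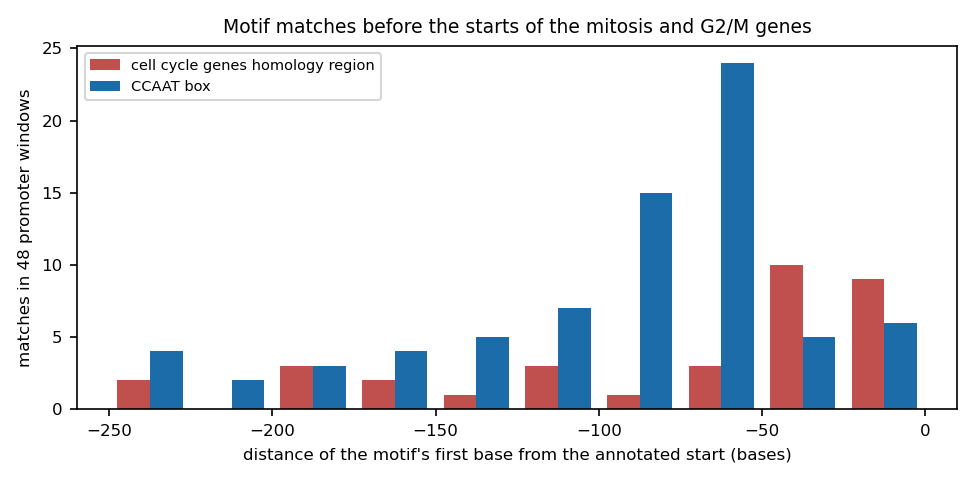
Matches of both motifs by distance from the annotated start, in bases, over the 48 promoter windows of 38 genes; bars are counts of matches per 25 bases, and windows of 1 gene can overlap. Of 75 CCAAT matches 39 began 51 to 100 bases before the start, and of 34 homology region matches 19 began within 50 bases of it.

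The libraries held 13402645 to 22383470 expected counts. In SKMEL2 the mean level of PPP2R3B was 21.5 ± 3.85 CPM (counts scaled to an equal library size; SD, n = 3) before induction, 443 ± 94.4 CPM at 6 h and 491 ± 46.1 CPM at 18 h. The corresponding SKMEL30 means were 20.2 ± 1.31, 520 ± 22.7 and 593 ± 1.79 CPM, with no overlap between uninduced and induced libraries of either line. The melanocyte markers MITF, PMEL, MLANA, TYR, DCT, SOX10 and S100B were at 116 CPM or more in every library, while TYRP1 was at 3.59 to 12.6 CPM in SKMEL2 and at 1070 CPM or more in SKMEL30. Blood and endothelial markers summed to 4.59 CPM or less in any library, and fibroblast markers to at most 5.18 CPM in SKMEL2 and 32.4 in SKMEL30, nearly all of it LUM. Keratinocyte markers summed to 30.2 to 52.0 CPM in SKMEL2 and 19.5 to 85.9 CPM in SKMEL30, with KRT1 at 0 throughout. KRT5 and KRT14, keratins of basal keratinocytes, were at 36.3 and 25.6 CPM in SKMEL30 6 h replicate 3 and at most 8.64 CPM in every other library. Their part in the results below was not tested.

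The mitotic genes were strongly expressed in both lines before induction. On a scale per length (TPM, counts divided by transcript length and scaled to an equal sum, from the counts and the length of each gene's canonical transcript), the median member stood at 67.5 TPM in uninduced SKMEL2 and 95.9 TPM in uninduced SKMEL30. These levels lie at the 84.3 and 88.0 percentile of all genes tested in each line. PTTG1, which encodes securin, led in both, at 413 ± 33.3 TPM in SKMEL2 and 688 ± 14.6 TPM in SKMEL30. In SKMEL2 it was followed by the spindle assembly factor TPX2 (195 ± 16.5 TPM), CDC20 (168 ± 18.5) and UBE2C, an E2 enzyme of the anaphase-promoting complex (159 ± 4.43). TPX2 stood above the others by more than either SD, and CDC20 and UBE2C did not stand apart beyond their spread. In SKMEL30 UBE2C (259 ± 9.49 TPM) stood above CDC20 (226 ± 11.1) by more than either SD, as did CDC20 above TPX2 (212 ± 10.9). The topoisomerase TOP2A (220 ± 4.85) lay between CDC20 and TPX2 and did not stand apart from either by that much. The lowest members were CDC25C, a phosphatase that activates CDK1, at 14 ± 1.2 TPM in SKMEL2, and CENPE at 5.78 ± 2.15 TPM in SKMEL30, the 31.0 percentile of that line.

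Before induction the lines differed in most of these genes. Of the 45, 41 differed between uninduced SKMEL30 and uninduced SKMEL2 at an adjusted p under 0.05 (edgeR quasi-likelihood test, Benjamini-Hochberg over all genes), where 75.9% of all 17133 genes tested did. In direction, 34 were higher in SKMEL30 (background 35.8% of all genes) and 7 were lower (background 40.1%). The median difference of the members was 0.49 on the log2 scale, against -0.05 over all genes. No test separated the members from other genes, and the line, its vector integrations and its culture cannot be told apart in this comparison.

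All 10 genes of mitotic entry were higher in SKMEL30, with a median log2 difference of 0.80. The largest was CDC25B (chromosome 20, 3786951 to 3806115), a phosphatase that activates cyclin-dependent kinases in G2. With all 18 libraries scaled together it stood at 54.8, 62.9 and 63.6 CPM in uninduced SKMEL2 and at 181, 184 and 185 CPM in uninduced SKMEL30. The groups were far apart, a log2 difference of 1.60 (SE 0.064, adjusted p = 1.74e-14, 3.03-fold). AURKA, the kinase of the centrosome and spindle poles, was at 67.6, 77.9 and 77.6 CPM in SKMEL2 and at 147, 156 and 160 CPM in SKMEL30 (log2 difference 1.05, SE 0.067, adjusted p = 2.35e-11). CDK1 (chromosome 10, 60778331 to 60794852) was at 85.1, 92.3 and 74.2 CPM against 158, 161 and 162 CPM (log2 difference 0.94, SE 0.062, adjusted p = 4.11e-11). In each of these 3 genes every SKMEL30 library was above every SKMEL2 library. Its partners differed less, CCNB1 by 0.72 (SE 0.082), CCNB2 by 0.57 (SE 0.073) and CCNA2, the cyclin A of S and G2, by 0.22 (SE 0.077). AURKB of the chromosomal passenger complex and FOXM1, a transcription factor of G2/M genes, both differed by 0.87, CDC25C by 0.47, and PLK1, whose promoter is shown above, by 0.28.

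Of the 8 genes of the spindle checkpoint and the anaphase-promoting complex, 7 were higher in SKMEL30. The differences were 0.80 for PTTG1, 0.77 for UBE2C, 0.75 for the checkpoint kinase BUB1, 0.49 for CDC20, 0.45 for BUB3, 0.44 for MAD2L1 and 0.29 for the checkpoint kinase TTK. The exception was BUB1B, which encodes the checkpoint protein BubR1. It stood at 91.6, 105 and 111 CPM in SKMEL2 and at 61.6, 65.8 and 66.1 CPM in SKMEL30. BUB1B was thus lower in SKMEL30 in all 3 libraries (log2 difference -0.67, SE 0.078, adjusted p = 1.91e-07) while its checkpoint partners were higher.

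The 9 centromere and kinetochore genes split, 5 higher and 3 lower in SKMEL30. The passenger proteins CDCA8 (borealin, 1.08) and INCENP (0.93, SE 0.066, adjusted p = 1.31e-10) were higher, as were the kinetochore protein SPC25 (0.86), the centromeric histone CENPA (0.83) and the survivin gene BIRC5 (0.33). CENPE (chromosome 4, 103105811 to 103198343), a kinesin that carries chromosomes to the spindle equator, showed the widest gap of all 45. It stood at 88.4, 95.9 and 116 CPM in uninduced SKMEL2 and at 22.3, 28.9 and 13 CPM in uninduced SKMEL30. The lowest SKMEL2 library was above the highest SKMEL30 library by far (log2 difference -2.22, SE 0.27, adjusted p = 3.67e-07), although the SKMEL30 libraries differed widely among themselves. CENPF, a large kinetochore protein (-0.42, SE 0.14), and NUF2 (-0.33, SE 0.10) were also lower, and NDC80, the partner of NUF2 in the microtubule-binding complex, differed by 0.09 (SE 0.071, adjusted p = 0.254).

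Among 13 kinesins and spindle genes 8 were higher and 2 lower. KIF11, the motor that separates the spindle poles, stood at 94.6, 106 and 107 CPM in SKMEL2 and at 235, 242 and 247 CPM in SKMEL30 (log2 difference 1.23, SE 0.071, adjusted p = 4.59e-12). KIF2C, a microtubule depolymerase, differed by 0.91, the central spindle motor KIF23 by 0.90 (SE 0.064, adjusted p = 1.22e-10) and PRC1, which bundles microtubules of the central spindle, by 0.87. HMMR, a spindle protein that binds hyaluronan and TPX2, was at 114, 136 and 145 CPM in SKMEL2 and at 59.0, 67.7 and 56.1 CPM in SKMEL30. It was lower in SKMEL30 (log2 difference -1.11, SE 0.12, adjusted p = 3.74e-08), as was ASPM, the spindle pole protein (-0.28, SE 0.12, adjusted p = 0.0393). KIF4A, DLGAP5 and NUSAP1 did not pass the test, with adjusted p of 0.0910, 0.190 and 0.770. In the last group TOP2A (0.82), CDCA3 (0.80), the proliferation marker MKI67 (0.69) and the cytokinesis regulator ECT2 (0.42) were higher, and anillin, ANLN, was lower (-0.43).

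**Figure D2:**
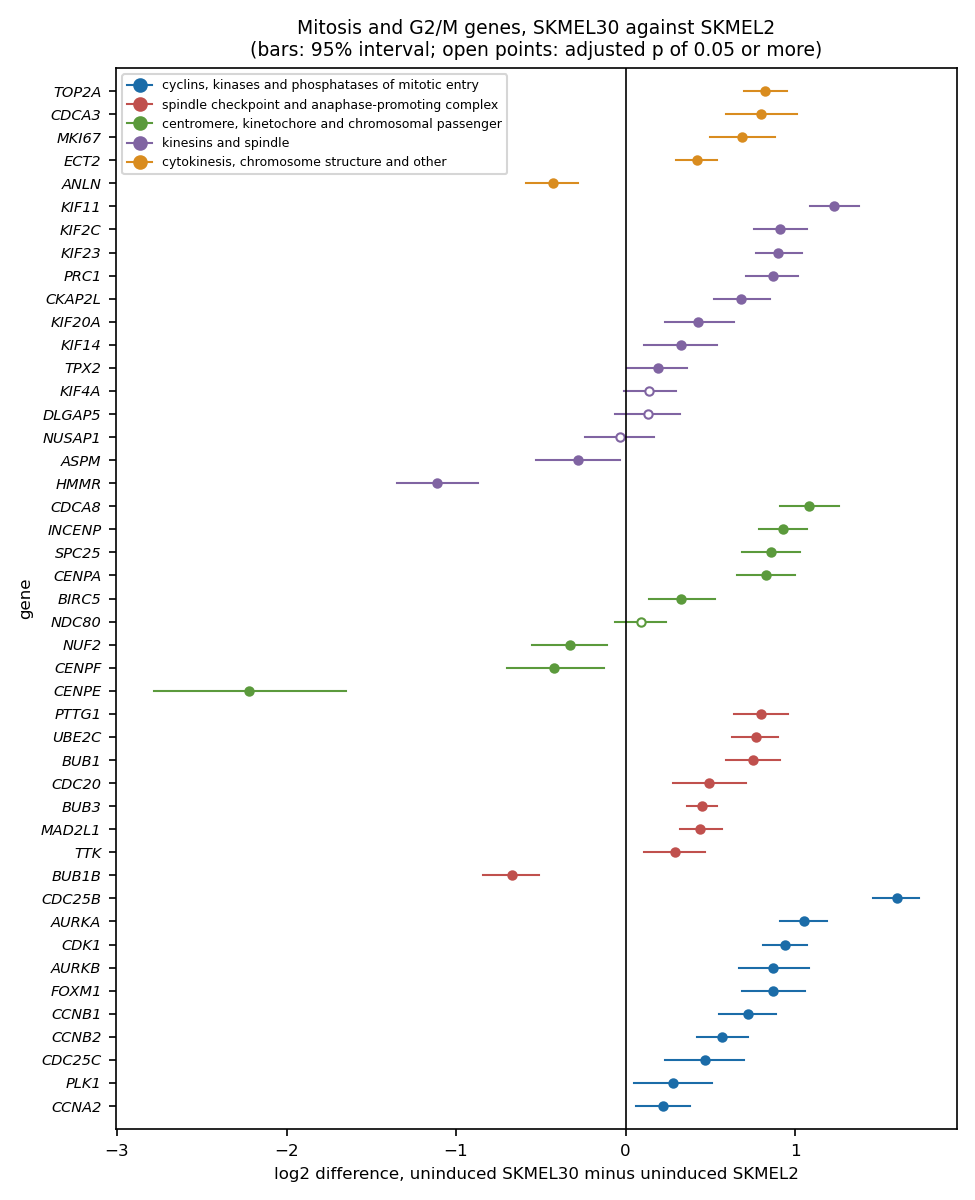
Log2 difference between uninduced SKMEL30 and uninduced SKMEL2 for the 45 genes, grouped by role; points are fitted differences, bars 95% intervals, and open points did not pass the test. CDC25B at 1.60 and CENPE at -2.22 mark the extremes, and all 10 genes of mitotic entry lie to the right of 0.

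Other genes of the same machinery, which are not among the 45, were read against the same background of 35.8% of all genes higher and 40.1% lower in SKMEL30, with a median of -0.05. In 23 further genes of mitotic entry 15 were higher and 3 lower (median 0.43), in 31 further kinetochore genes 20 and 8 (median 0.35), in 20 further spindle genes 15 and 4 (median 0.37), in 20 further genes of the anaphase-promoting complex 12 and 2 (median 0.20), and in 18 cohesin and condensin genes 9 and 4 (median 0.13). GTSE1, a microtubule protein of G2 (2.66, SE 0.076), and CDKN1A, which encodes the CDK inhibitor p21 (2.55, SE 0.084), had the smallest p of the first of these lists, and NUMA1, which anchors spindle poles, of the spindle list (1.56, SE 0.077). In 43 genes of DNA replication and G1/S, 32 were higher and 6 lower with a median of 0.67, led by the helicase subunit MCM6 (2.04, SE 0.046).

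At 6 h of induction none of the mitotic genes passed the test in SKMEL2. With edgeR 0 of 45 were called (0.0124% of all 16120 genes were), 0 had an unadjusted p under 0.05 (3.37% of all genes), and DESeq2 called 0. The log2 changes ran from -0.13 to 0.20 with a median of -0.02 (0.00 over all genes), and 28 were below 0 (49.1% of all genes). That count was 39, 22 and 16 without uninduced replicate 1, 2 and 3, and 13, 32 and 33 without 6 h replicate 1, 2 and 3. Without 6 h replicate 1 the count with an unadjusted p under 0.05 was 2 (4.78% of all genes). Without 6 h replicate 2 it was 5 (9.23%). No member had all 3 induced libraries above or below all 3 uninduced ones, which 3.23% and 3.73% of all genes did. The 95% interval of the change lay within 0.5 of 0 on the log2 scale, a 1.41-fold change, for 44 of 45 members.

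The 6 genes with the smallest p at 6 h in SKMEL2 were KIF11 (-0.12, SE 0.079), KIF23 (-0.11, SE 0.076), CDC25C (0.20, SE 0.14), CCNA2 (-0.13, SE 0.095), CDC20 (0.17, SE 0.13) and PTTG1 (0.11, SE 0.096), all at an adjusted p of 0.989. CDC20 was at 106, 132 and 121 CPM in uninduced cells and at 115, 125 and 165 CPM at 6 h. Only the last of these libraries stood above the uninduced range. CDC25C was at 11.1, 13.3 and 13.3 CPM and then at 11.8, 15.7 and 16.1 CPM, again with groups that overlap.

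At 18 h in SKMEL2 the genes sat slightly lower as a group, and none passed the test. Of 45, 0 were called by edgeR (0.0124% of all genes) and 0 by DESeq2, and 39 had a log2 change below 0 (50.0% of all genes). The median was -0.11 (0.00 over all genes) and the range -0.29 to 0.06. Leaving out each compared library in turn gave 34 to 43 members below 0. Only SPC25 had an unadjusted p under 0.05 (4.65% of all genes did). This count was 14 without uninduced replicate 1 (5.81%), 3 without 18 h replicate 2 (2.95%) and 0 without 18 h replicate 1 (3.01%). It was 6 in a fit of all 18 libraries (7.89% of all genes), 10 with the compared libraries alone (8.66%) and 14 without a filter on low counts (4.69%). By role the medians were -0.08 for mitotic entry, -0.11 for the checkpoint and for the kinetochore, -0.15 for kinesins and spindle, of which 13 of 13 were below 0, and -0.10 for the rest.

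SPC25 was at 17.4, 19.1 and 18.8 CPM in uninduced SKMEL2, at 16.3, 19.1 and 16.1 CPM at 6 h and at 13.8, 14.7 and 16.7 CPM at 18 h. Every 18 h library was below every uninduced one, and the 6 h libraries overlapped both groups (18 h against uninduced -0.29, SE 0.098, adjusted p = 0.987). KIF23 (-0.16, SE 0.076) and KIF14, a motor of cytokinesis (-0.13, SE 0.073), also had groups that did not overlap, which makes 3 members that were lower throughout, where 7.39% of all genes were. UBE2C (-0.18, SE 0.086), KIF11 (-0.15, SE 0.079), HMMR (-0.21, SE 0.11) and ASPM (-0.17, SE 0.093) followed in order of p, all at an adjusted p of 0.987. The 95% intervals lay within 0.5 of 0 for 44 of 45 members and within 0.25, a 1.19-fold change, for 9.

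Between 6 h and 18 h in SKMEL2, 0 of 45 were called by edgeR (0.0% of all genes) and 0 by DESeq2, 0 had an unadjusted p under 0.05 (2.59% of all genes), and 42 were below 0 (52.1% of all genes). The median was -0.10 (-0.01 over all genes). Leaving out each compared library in turn gave 31 to 43 members below 0. Without 6 h replicate 1 the count with an unadjusted p under 0.05 was 9 (5.35% of all genes). It was 1 without 6 h replicate 3 (4.91%), 18 h replicate 2 (1.9%) or 18 h replicate 3 (2.3%). In a fit of all 18 libraries it was 5 (4.93%). The smallest p belonged to TOP2A (-0.14, SE 0.069), PTTG1 (-0.19, SE 0.096), SPC25 (-0.19, SE 0.10), BUB1B (-0.18, SE 0.093), UBE2C (-0.16, SE 0.086) and BUB1 (-0.14, SE 0.090), each at an adjusted p of 1. TOP2A, at 307, 325 and 348 CPM and then at 278, 305 and 307 CPM, was the only member whose 18 h libraries were all below the 6 h ones (4.17% of all genes were). Comparisons with 18 h share the 18 h libraries, and those with uninduced cells share the uninduced ones, in this line and in SKMEL30, so their values are not independent.

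**Figure D3:**
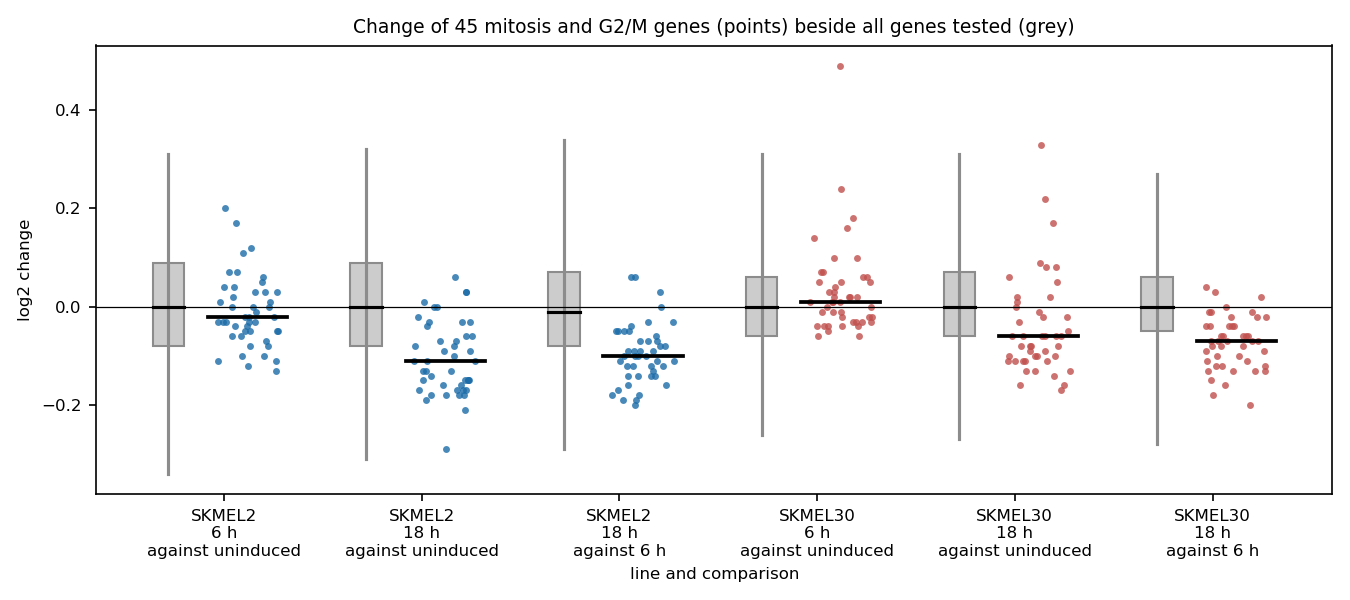
Log2 change of each of the 45 genes (points, spread sideways for clarity) for 3 comparisons in each line, with the members' median as a black line; the grey box and line give the middle 50% and the 5 to 95 percentile of all genes tested. The members' medians are -0.02, -0.11 and -0.10 in SKMEL2 and 0.01, -0.06 and -0.07 in SKMEL30, and the point at 0.49 is CENPE.

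In SKMEL30, where the spread between libraries was smaller (median SE of the members 0.043, against 0.093 in SKMEL2), the picture at 6 h was again of no called gene. Of 45, 0 were called by edgeR (0.206% of all 15026 genes) and 0 by DESeq2. The median log2 change was 0.01 and 26 were above 0 (50.3% of all genes). The 95% intervals lay within 0.25 of 0 for 39 members and within 0.5 for 43.

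BUB1B alone had an unadjusted p under 0.05 at 6 h (6.44% of all genes did), and none did with DESeq2 (2.81%). The count was 5 without uninduced replicate 2 (6.05% of all genes) or 6 h replicate 1 (7.11%) and 3 without uninduced replicate 3 (6.94%). It was 2 without 6 h replicate 2 (5.74%) and 6 without 6 h replicate 3 (7.77%). BUB1B was at 59.3, 63.4 and 63.7 CPM in uninduced SKMEL30, at 66.0, 67.9 and 65.3 CPM at 6 h and at 57.9, 56.7 and 59.2 CPM at 18 h. The 6 h libraries were the highest of all and the 18 h libraries the lowest, with no overlap between the 3 groups (6 h against uninduced 0.10, SE 0.040, adjusted p = 0.726). BUB1B was the only member higher in every 6 h library (5.4% of all genes were) and KIF4A, a chromosome-bound motor, the only one lower in every 6 h library (5.78%). NUF2 (0.16, SE 0.077, adjusted p = 0.779), MKI67 (0.06, SE 0.035, adjusted p = 0.814), ASPM (0.18, SE 0.11), CENPF (0.24, SE 0.15) and HMMR (0.14, SE 0.088), the last 3 at 0.823, followed. Without a filter on low counts, with 30524 genes tested, CENPE, CENPF and ASPM were called higher at 6 h (1.05% of all genes were called).

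The largest values at 6 h in SKMEL30 came from a few genes in 2 libraries. CENPE was at 21.5, 27.8 and 12.6 CPM in uninduced cells, at 18.3, 46.9 and 20.8 CPM at 6 h and at 24.0, 24.8 and 29.7 CPM at 18 h (6 h against uninduced 0.49, SE 0.30, adjusted p = 0.823). CENPF was at 310, 372 and 238 CPM, then at 315, 462 and 309 CPM, then at 351, 354 and 371 CPM. ASPM was at 153, 177 and 131 CPM, then at 152, 212 and 158 CPM, then at 169, 176 and 175 CPM. In each of the 3 genes uninduced replicate 3 was the lowest and 6 h replicate 2 the highest of all 9 libraries, and the groups overlap. KIF14 and HMMR had their highest value in the same 6 h library. The within-group SD of CENPE was 0.540 on the log2 scale, the 98.5 percentile of all genes in the line, and that of CENPF 0.266, the 89.7 percentile. With both libraries left out, an alternative chosen after seeing the data, the 6 h change was -0.13 for CENPF, -0.09 for ASPM and -0.05 for HMMR. These libraries held the lowest uninduced and highest 6 h values of these genes, so leaving them out could only lower the change.

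The canonical transcripts of CENPE (8541 bases), CENPF (10290), ASPM (10863) and KIF14 (7291) are long, while those of HMMR (3016) and NUF2 (1964), which were also highest in that 6 h library, are shorter. Across the 45 genes, which share each library, the deviation of a gene from its mean over the line went with its transcript length by a Spearman coefficient of 0.38 in 6 h replicate 2 and -0.34 in uninduced replicate 3. In the other SKMEL30 libraries it ran from -0.71 (6 h replicate 3) to 0.32, so 6 h replicate 2 was the highest and uninduced replicate 3 was not the lowest. Over all 14741 genes with a length the coefficients of the 2 libraries were 0.14 and -0.07, and those of the others ran from -0.08 to 0.08. The longest member, MKI67 with 12716 bases, was at 711, 729 and 701 CPM in uninduced cells and at 708, 785 and 738 CPM at 6 h. For this gene too uninduced replicate 3 was the lowest of its group, by a small margin, and 6 h replicate 2 was the highest library of the line. The part of transcript length in these values was not tested.

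**Figure D4:**
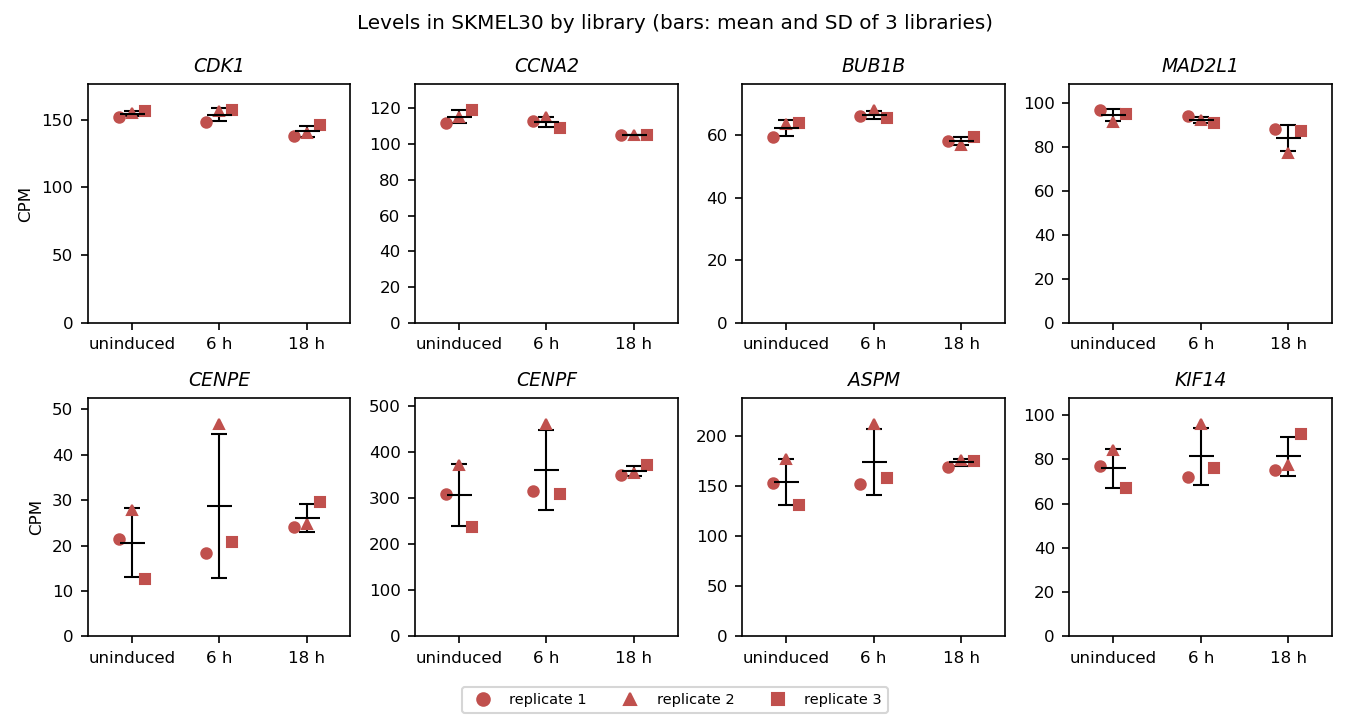
Level in CPM of 8 genes in the 9 SKMEL30 libraries, by group; symbols mark replicate numbers, bars the mean and SD of 3 libraries, and every axis starts at 0. CDK1 and CCNA2 lie lower at 18 h in all 3 libraries, while CENPE, CENPF and ASPM spread widely, with 6 h replicate 2 highest and uninduced replicate 3 lowest.

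At 18 h most of the mitotic genes of SKMEL30 lay lower by small amounts, and none passed the test over all genes. The members share each library, so counts of members are not separate evidence. Their mean level per library, given below, overlapped between the groups. Of 45, 0 were called by edgeR (0.293% of all genes) and 0 by DESeq2, with a median of -0.06 (0.00 over all genes) and 33 below 0 (49.7% of all genes). Leaving out each compared library in turn gave 30 to 36 members below 0. An unadjusted p under 0.05 was found for 17, all of them lower, where 9.14% of all genes passed that threshold and 4.83% were lower. With DESeq2 this count was 16 (4.33% of all genes), and in a fit of all 18 libraries it was 2 (4.25%). It was 24 without uninduced replicate 1 (7.76%), 10 without uninduced replicate 3 (8.31%) and 7 without 18 h replicate 1 (7.0%). With the replicate number as a block it was 21, of which 19 were lower (9.38%), and without a filter on low counts 23, of which 19 were lower (6.82%). Without a filter on low counts 7 members were called at 18 h (1.18% of all genes), CCNA2, CDK1, MAD2L1 and BIRC5 lower and CENPE, CENPF and ASPM higher. The 3 libraries at 18 h were all below the 3 uninduced ones for 14 members (8.19% of all genes) and all above for 1, PTTG1 (7.75%).

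Those 14 were the mitotic entry genes CCNA2, CDK1, PLK1, AURKB and FOXM1, the checkpoint and ubiquitination genes BUB1B, BUB3, MAD2L1 and UBE2C, the centromere genes CENPA, SPC25 and BIRC5, and KIF11 and ANLN. CCNA2 (chromosome 4, 121816444 to 121823883) was at 112, 115 and 119 CPM in uninduced SKMEL30, at 113, 115 and 109 CPM at 6 h and at 105, 105 and 105 CPM at 18 h. The 18 h libraries were close to each other and below the other 6, a change of -0.14 (SE 0.034, adjusted p = 0.161), the smallest adjusted p among the members. CDK1 was at 152, 155 and 156 CPM, then at 148, 156 and 157 CPM, then at 138, 140 and 146 CPM. Its 18 h libraries too were below the other 6 (-0.13, SE 0.033, adjusted p = 0.185). MAD2L1, which holds the anaphase-promoting complex inactive, was at 96.8, 91.5 and 95.1 CPM and at 88.0, 77.3 and 87.2 CPM at 18 h (-0.16, SE 0.046, adjusted p = 0.222). AURKB, at 47.3, 45.9 and 48.8 CPM and then 42.2, 40.5 and 44.4 CPM, differed by -0.16 (SE 0.049, adjusted p = 0.311). ANLN (-0.11, SE 0.035) and BIRC5 (-0.13, SE 0.043) had an adjusted p of 0.349. The lowest fold among the members was that of SPC25, 0.888 of its uninduced level.

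Against 6 h, the 18 h libraries of SKMEL30 gave 0 called members with edgeR (0.02% of all genes) and 0 with DESeq2, a median of -0.07 (0.00 over all genes) and 41 of 45 below 0 (50.5% of all genes). Leaving out each compared library in turn gave 35 to 43 members below 0. An unadjusted p under 0.05 was found for 13, all lower (5.56% of all genes passed and 2.82% were lower). This count was 12 with DESeq2 (2.17% of all genes), 3 in a fit of all 18 libraries (2.84%) and 17 with the replicate number as a block (5.42%). It was 8 without 18 h replicate 1 (4.55%) and 18 without 6 h replicate 1 (5.83%). Without a filter on low counts 1 member, BUB1B, was called (0.645% of all genes). In 15 members every 18 h library was below every 6 h library (5.76% of all genes), and in none was it above (5.48%). All 9 centromere and kinetochore genes were below 0 (median -0.13). BUB1B, with the values above, had the smallest p (-0.20, SE 0.040, adjusted p = 0.264). CDK1 followed (-0.12, SE 0.033, adjusted p = 0.622), then SPC25 (-0.18, SE 0.058), BIRC5 (-0.13, SE 0.043), the microtubule protein NUSAP1 (-0.12, SE 0.037) and CCNA2 (-0.10, SE 0.034), each at 0.771. NUSAP1 was at 99.7, 102 and 101 CPM at 6 h and at 92.9, 90.2 and 95.4 CPM at 18 h, and at 96.5, 93.4 and 101 CPM before induction.

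With both induced groups set against the uninduced libraries, 0 of 45 were called in SKMEL2 (0.0186% of all genes) and 0 in SKMEL30 (0.26%) by edgeR, and 0 by DESeq2 in each. The medians were -0.08 and -0.04. An unadjusted p under 0.05 was found for 1 member in SKMEL2 (SPC25, with 4.42% of all genes) and for 9 in SKMEL30 (8.67%). With DESeq2 these counts were 0 (3.03%) and 4 (4.13%), and in a fit of all 18 libraries 3 (7.66%) and 0 (4.23%). In SKMEL2 the count was 6 without uninduced replicate 1 (4.58%) and 9 without 6 h replicate 2 (9.2%). It was 1 without 18 h replicate 3 (3.22%) and 0 without any other library. In SKMEL30 the count was 12, 10 and 0 without uninduced replicate 1, 2 and 3 (7.36%, 7.4% and 8.01% of all genes). It was 4, 7 and 11 without 6 h replicate 1, 2 and 3 (9.02%, 8.31% and 9.39%). Without 18 h replicate 1, 2 and 3 it was 2, 5 and 7 (7.54%, 8.31% and 7.39%). Without a filter on low counts CENPE, CENPF and ASPM were called in SKMEL30 (1.21% of all genes).

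The other genes of the machinery gave the same counts of calls. None of the 23 further entry genes, 20 anaphase-promoting complex genes, 31 kinetochore genes, 20 spindle genes, 18 cohesin and condensin genes or 43 replication and G1/S genes was called by edgeR within a line. At 18 h the medians of the first 5 lists lay between -0.10 and 0.00 (SKMEL2) and between -0.07 and -0.01 (SKMEL30). The replication and G1/S genes were below 0 in 40 of 43 cases in SKMEL2 (median -0.08) and in 38 of 43 in SKMEL30 (median -0.07).

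The responses of the lines were compared gene by gene in the joint fit. For the 6 h response 0 of 45 differed (0.0% of all 17133 genes did) and for the 18 h response 0 of 45 (0.00584%), by edgeR and by DESeq2 alike, and 0 had an unadjusted p under 0.05 in edgeR at either time (4.91% and 5.16% of all genes; 0 and 1 members in DESeq2). These counts reached 4 at 6 h without SKMEL2 6 h replicate 2 (11.2% of all genes). At 18 h they reached 4 without SKMEL2 uninduced replicate 1 (6.8%). They lay between 0 and 3 without any other library. Without a filter on low counts CENPE was called at 6 h (0.667% of all genes), and CENPE, CENPF and ASPM at 18 h (0.608%). The median differences, SKMEL30 minus SKMEL2, were 0.03 and 0.05. The 95% interval of the difference lay within 0.5 of 0 for 40 members at 6 h and 39 at 18 h, so larger differences were not covered for the rest. The smallest p belonged to ASPM at both times (0.29, SE 0.17, adjusted p = 0.902, and 0.34, SE 0.17, adjusted p = 0.895). HMMR (0.26 and 0.29), CENPF (0.25 and 0.33) and KIF14 (0.19 and 0.23) followed, with CENPE (0.49, SE 0.37) and NUF2 (0.18) at 6 h and MAD2L1 (-0.15) and CDK1 (-0.14) at 18 h, at the same adjusted p. Without SKMEL30 6 h replicate 2, the highest SKMEL30 library for CENPE, the value of CENPE at 6 h was -0.08. Except for MAD2L1 and CDK1, these genes were lowest in SKMEL30 uninduced replicate 3 or highest in 6 h replicate 2 of that line. They were not the only ones, since 6 h replicate 2 was the highest of its group for 25 of 45 members (34.8% of all genes).

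The mean level of the 45 genes varied between libraries of a group. In SKMEL2 the mean of log2(CPM + 0.5) over the members, relative to its mean over the 9 libraries, was -0.09, 0.10 and 0.10 in the uninduced libraries, -0.10, 0.13 and 0.05 at 6 h and -0.19, 0.01 and -0.01 at 18 h. Replicate 1 was the lowest of each group, and the spread between libraries of a group (SD 0.11) was as large as the median change at 18 h. In SKMEL30 the values were -0.03, 0.04 and 0.00, then -0.03, 0.10 and 0.02, then -0.08, -0.02 and 0.00 (SD 0.05). The 18 h values overlapped those of both other groups, and this SD was close in size to the median change at 18 h, -0.06. PLK1 shows the pattern in SKMEL2, at 75.4, 96.9 and 104 CPM before induction, at 75.1, 97.3 and 105 CPM at 6 h and at 70.8, 84.9 and 88.3 CPM at 18 h.

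Counted by gene, replicate 1 held the lowest value of its group for 39, 34 and 43 of 45 members in uninduced, 6 h and 18 h SKMEL2, where it did so for 35.2%, 28.7% and 34.0% of all genes. In SKMEL30 the counts were 28, 30 and 35, against 31.8%, 32.4% and 33.5% of all genes. The mean hides genes that went the other way, since SKMEL30 uninduced replicate 3 was the highest of its group for 26 members and the lowest for 10. The labels name no batch that these numbers would mark. With the SKMEL2 libraries of number 1 left out together, an alternative chosen after seeing the data, the median change was -0.01 at 6 h and -0.09 at 18 h, with 39 of 45 below 0 at 18 h and 0 called.

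**Figure D5:**
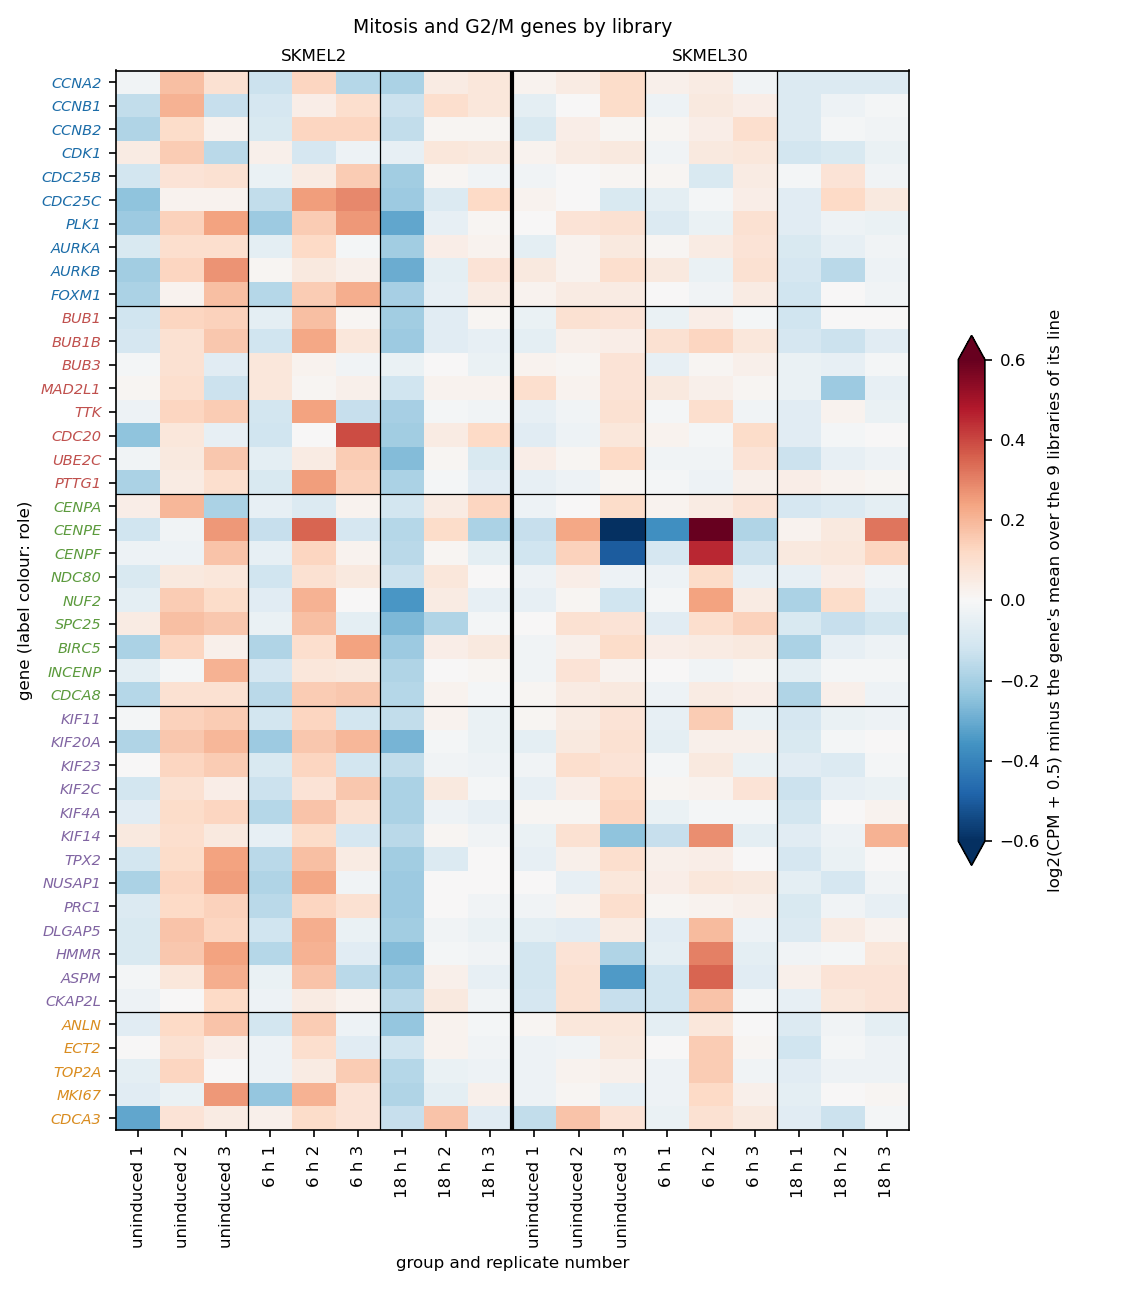
Deviation of each of the 45 genes from its mean over the 9 libraries of its line, on the log2(CPM + 0.5) scale, by library; colours saturate at 0.6, and label colours mark roles. The first column of each SKMEL2 group is blue for most genes, and CENPE and CENPF in SKMEL30 run from dark blue in uninduced replicate 3 to dark red in 6 h replicate 2.

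Counts behind the members ran from 182 to 16362 per library, and 28 of 45 members had whole numbers in every library. Some members share sequence with other genes. Counts of the copies PTTG3P, PTTG2, CCNB2P1, BUB3P1 and MAD2L1P1 reached at most 3, KIF4B reached 12 and CDC20P1 80. Several members overlap an expressed neighbour, among them CCNA2 (EXOSC9), CDC25C (FAM53C), KIF20A (BRD8 and CDC23) and KIF4A (PDZD11) on the opposite strand and CENPA (SLC35F6) and NUSAP1 (OIP5-AS1) on the same strand. How the counting split such reads is uncertain, most of all for CDC25C, with as few as 182 counts beside up to 1858 for FAM53C.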

How the data were processed

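RNA of 18 libraries was prepared by the authors with a messenger RNA kit and sequenced as 43-base read pairs. Per the labels and the study's methods, reads were trimmed, aligned to GRCh38 with Ensembl release 86, merged over lanes and counted per gene. The submitters' processing notes name cutadapt 1.5, Trimmomatic 0.36, STAR 2.2.2a, SAMtools 1.8 and RSEM 1.3.0, and the study's methods give other versions of some of these. The deposited values are expected counts per gene as RSEM estimates them, neither normalized nor filtered (12.3% not whole), and they were rounded to whole numbers here. RSEM divides reads that fit several genes, so counts of copies and overlapping genes depend on that estimate. The table had 0 columns without a sample.

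Each line was fitted alone, and the lines were compared in a joint fit, with edgeR 4.0.16 in R 4.3.3 (filterByExpr, TMM factors, quasi-likelihood F-test, Benjamini-Hochberg over all genes tested, threshold 0.05). The scripts were tested on simulated data. The coefficient of variation between libraries beyond counting noise, which may be technical, came to 8.36% (SKMEL2) and 4.11% (SKMEL30). CPM use the TMM-scaled totals of 1 line unless both lines are compared, and TPM use canonical transcript lengths of GENCODE 44. A symbol was found for 95.8% of gene identifiers. Replicates differed by more than counting noise in all 18 pairs (chi-square per degree of freedom 2.13 to 20.6). Each library was counted as 1 sample, although this spread does not show that replicates were separate cultures.

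The members and gene lists were chosen with earlier results of these data known. Values are given for the 6 members with the smallest p of each comparison, except those of both induced groups against uninduced libraries. They are also given for some of the members whose libraries did not overlap between groups, and for examples by role chosen after their values were seen. Alternatives were DESeq2 1.42.0, RLE factors, no filter, at least 10 counts in every library, the replicate number as a block, all 18 libraries in 1 fit, the compared libraries alone and each library left out. The joint omission of the SKMEL2 libraries numbered 1, and of SKMEL30 uninduced replicate 3 with 6 h replicate 2, was added after seeing the data. Figures were drawn with matplotlib 3.10.9.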

Additional observations from a re-analysis of the deposited data

How the results depend on the processing

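With no filter on low counts, members were called in SKMEL30 where the filtered fit called 0, namely 3 at 6 h, 7 at 18 h (3 higher and 4 lower), 1 between 6 h and 18 h and 3 over both times, and 1 and 3 differed between lines in their 6 h and 18 h responses. That fit called 321, 359, 197 and 370 of 30524 genes in the same SKMEL30 comparisons, 158, 168, 135 and 165 of 32828 in SKMEL2, and 237 and 216 of 35508 for the responses. The cause was not tested. In SKMEL30 the 6 h changes of ASPM, CENPF and HMMR were 0.18, 0.24 and 0.14. They were -0.09, -0.13 and -0.05 with uninduced replicate 3 and 6 h replicate 2 left out. Those libraries held the extreme values of these genes, so a lower change was fixed by the choice. The 6 h difference of CENPE between lines went from 0.49 to -0.08 without 6 h replicate 2, the highest SKMEL30 library for CENPE. It ran from -0.08 to 0.76 over single libraries left out. By construction each omission leaves fewer samples.

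With each library left out in turn, 0 members were called within either line or between the responses, and 37 to 40 between the uninduced lines. The median change then lay between -0.07 and 0.04 at 6 h, -0.17 and -0.07 at 18 h, -0.17 and -0.02 for 18 h against 6 h and -0.13 and -0.03 over both times in SKMEL2. In SKMEL30 these ranges were -0.02 to 0.03, -0.09 to -0.04, -0.09 to -0.05 and -0.07 to 0.00. They were -0.03 to 0.10 and -0.01 to 0.12 for the responses and 0.45 to 0.58 between uninduced lines.

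The labels share replicate numbers but do not say what they mark, so the numbers were not taken to pair the samples. Over all genes tested, deviations of same-numbered libraries correlated by -0.13 to 0.17 in SKMEL2 and -0.02 to 0.12 in SKMEL30. Libraries of different numbers were not correlated for comparison, so these values cannot decide whether the numbers mark pairs. With the replicate block 0 members were called within lines, and the SKMEL2 18 h median was -0.11. There 15 members rather than 1 had an unadjusted p under 0.05 (6.17% of all genes), and 10 rather than 0 against 6 h (4.15%). Between uninduced lines 42 members were called (76.5% of all genes). Over all genes, DESeq2 called 8, 11, 5 and 15 in SKMEL2 (edgeR 2, 2, 0 and 3) and 71, 12 and 65 in SKMEL30 at 18 h, against 6 h and over both times (edgeR 44, 3 and 39). A fit of all 18 libraries called 5, 9, 0 and 9 in SKMEL30 and 6, 7, 0 and 9 in SKMEL2. DESeq2 called 3 genes for the 18 h responses (edgeR 1). The block called 7 genes at 18 h and 7 over both times in SKMEL2 (2 and 3 without it) and 16 for 18 h against 6 h in SKMEL30 (3 without it). The compared libraries alone called 9 at 18 h in SKMEL2 and 0 for 18 h against 6 h in SKMEL30. The stricter filter and the joint omission of the 2 SKMEL30 libraries called 5 and 9 in that last comparison. Of the alternative values computed for the calls and medians, 324 kept their direction and side of the threshold or stayed near the main value and 6 did not.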

Other observations

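In SKMEL30 6 h replicate 3, the library with the most KRT5 and KRT14, the deviation of the 45 genes went with transcript length by a Spearman coefficient of -0.71 across genes, against -0.06 over all 14741 genes with a length. Its mean member deviation was 0.02 on the log2 scale.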
